A study of Sus scrofa with 4 samples.

Results

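The genes described here are 6 effectors and targets of canonical WNT signalling, LEF1, TCF7, AXIN2, NKD1, NOTUM and SP5, among 30282 pig genes counted. They were taken by name, with all features of a gene summed. Porcine pancreatic ductal organoids (PPDO) were compared with the cells of primary porcine pancreas by single-cell RNA-seq, with 2 libraries of each. The study describes the PPDO as coming from 1 late postnatal and 1 adult pig, although the ages named in its filtering step both fall in its late postnatal range. They had been passaged, and the study states that most of their cells had by then changed to a less mature ductal state. They grew in a medium with WNT3a, R-spondin 1 and noggin, EGF and FGF10. The labels do not say which line is which replicate. The primary cells came from a wild-type and an INS-eGFP pig of late postnatal age, a line in which insulin-producing cells are fluorescent. By the methods, the first was enriched for ducts picked by hand, and the second pooled DBA-binding cells, INS-eGFP cells and unselected live cells. It was assumed that these are primary pancreas 1 and 2, and eGFP was found at 164 and 10361 UMIs (unique molecular identifiers, each a captured RNA molecule) in them.

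In canonical WNT signalling, ligands bound by Frizzled and LRP receptors spare β-catenin from a destruction complex, and β-catenin then switches on genes through DNA-binding factors of the TCF/LEF family. LEF1 and TCF7 are such factors, both also known from T lymphocytes. AXIN2 belongs to the destruction complex and is a widely used target gene. NKD1 binds Dishevelled and dampens the signal inside the cell, NOTUM is a secreted enzyme that removes the lipid of WNT ligands, and SP5 is a transcription factor that WNT signalling induces in many tissues. Organoids of many epithelia depend on WNT ligands in their medium, and here medium and group cannot be told apart.

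In the RefSeq annotation of Sscrofa11.1, LEF1 (ENSSSCG00000009148) lies at chr8:113824511-113944078, TCF7 (ENSSSCG00000030680) at chr2:136422740-136456323 and AXIN2 (ENSSSCG00000017265) at chr12:12311293-12343207. NKD1 (ENSSSCG00000039875) lies at chr6:34223888-34319584, NOTUM (ENSSSCG00000039013) at chr12:1033814-1044412 and SP5 (ENSSSCG00000038355) at chr15:76900138-76905024. LEF1 overlaps another annotated gene (LOC110262175) and AXIN2 overlaps CEP112. TCF7 lies 2449 bases from its nearest gene, SKP1. The counts were made on an in-house annotation. How reads in the shared stretches or between TCF7 and SKP1 were counted was not tested.

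The PPDO libraries kept 8885 and 7337 cells and the primary libraries 5668 and 4253, with median depths of 34176, 34459, 10140 and 23541 UMIs per cell. Any pair of libraries shared 10 to 23 cell barcodes. Primary cells were clustered without the WNT genes and named from markers, which gave 2169 ductal-like cells in primary pancreas 1 and 1188 in primary pancreas 2. The 8 ductal markers together reached 26503 and 30219 CPM (UMIs per 1000000 UMIs) in these cells and 1110 and 968 CPM in PPDO, where KRT7 stood at 389 and 384 CPM but CFTR at 1.04 and 0.636 CPM and SOX9 at 3.30 and 1.44 CPM. The label ductal thus rests in PPDO on few of its markers. The Schwann-like class held 344 cells of primary pancreas 1 and 1 cell of primary pancreas 2, so it is given for the first only. INS made up 0.0102% of the UMIs of ductal-like cells in primary pancreas 1 and 0.775% in primary pancreas 2, and whether these UMIs are free RNA was not tested.

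LEF1 separated PPDO from primary ductal-like cells by more than any other member that was tested. It stood at 33.6 and 26.4 CPM in the PPDO libraries and at 2.15 and 1.58 CPM in the ductal-like cells. The groups did not overlap, and the mean was 29.98 ± 5.09 CPM (SD, n = 2) against 1.86 ± 0.403 CPM. LEF1 was higher in PPDO by 4.43 on the log2 scale (SE 0.31), with an adjusted p of 0.00119 in edgeR's quasi-likelihood test with Benjamini-Hochberg adjustment. After thinning every cell to 3000 UMIs, 7.94% and 6.54% of PPDO cells had a LEF1 UMI, against 0.583% and 0.673% of ductal-like cells. The first primary share had a 95% exact interval of 0.302 to 1.02%, which holds the 0.400% of acinar-like cells (1 of 250 cells, median depth 7329 UMIs before thinning, against 17871 UMIs). LEF1 detection in ductal-like cells was thus not separable from that in acinar-like cells. With 2 libraries a group the exact permutation test on the shares cannot go below p = 0.333, the value it gave. Markers of the primary classes that carry LEF1 were not all low in PPDO. The 10 endothelial markers summed to 76.2 and 65.3 CPM in PPDO and to 121.95 and 69.5 CPM in ductal-like cells, with CDH5 at 0.0565 and 0.0534 CPM in PPDO but EGFL7 at 50.04 and 44.2 CPM, above its 6.58 and 4.57 CPM in ductal-like cells. The 7 T and NK lymphocyte markers summed to 13.2 and 11.8 CPM against 9.999 and 14.04 CPM, mostly from CD247 (9.94 and 8.93 CPM in PPDO), with CD3E at 0.0399 and 0.0762 CPM. The 8 Schwann markers summed to 3645 and 3507 CPM against 838 and 1095 CPM. The part of such cells in the LEF1 result was not tested.

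TCF7, the other TCF/LEF member, did not separate the groups. PPDO had 23.1 and 22.4 CPM and the primary cells 31.3 and 14.2 CPM, so both PPDO values lay between the primary ones. The means were 22.7 ± 0.492 and 22.7 ± 12.1 CPM (SD, n = 2), and TCF7 did not pass the test (log2 fold change 0.40, SE 0.47, adjusted p = 0.516 in edgeR). The primary libraries decided this value. Without primary pancreas 1 the log2 fold change was 1.22 with an adjusted p of 0.00869 in edgeR, and without primary pancreas 2 it was -0.15 with an adjusted p of 0.415 in edgeR. At 3000 UMIs per cell, 6.70% and 6.31% of PPDO cells and 7.49% and 3.79% of ductal-like cells had a TCF7 UMI.

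AXIN2 was moderately higher in PPDO. The PPDO libraries had 27.1 and 23.3 CPM and the primary cells 17.8 and 11.6 CPM, without overlap. The difference was 1.20 on the log2 scale (SE 0.32, adjusted p = 0.0384 in edgeR). The call was lost without PPDO replicate 1 (adjusted p = 0.15 in edgeR) and without PPDO replicate 2 (adjusted p = 0.124 in edgeR), although the value stayed between 0.81 and 1.66 with any library left out. At 3000 UMIs per cell the share was 6.62% ± 0.577 in PPDO and 3.52% ± 0.933 in ductal-like cells (SD, n = 2, exact permutation p = 0.333).

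NOTUM was rare in every sample but more frequent in PPDO. It had 304 and 142 UMIs in PPDO (1.01 and 0.541 CPM) and 6 and 2 UMIs in ductal-like cells (0.139 and 0.0789 CPM). The log2 fold change was 3.17 (SE 0.59, adjusted p = 0.0135 in edgeR), and the pooled CPM was 6.80 times higher in PPDO, with a counting interval of 3.42 to 15.8. The call was lost without PPDO replicate 1 (log2 fold change 2.70, adjusted p = 0.0763 in edgeR). All 6 NOTUM UMIs of the first primary library fell on a second feature of the gene, read here from its name as an extension of the annotated body. With bodies only, the log2 fold change was 4.80 (adjusted p = 0.0187 in edgeR).

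NKD1 had its higher values in the primary cells. PPDO had 88 and 38 UMIs (0.292 and 0.145 CPM) and ductal-like cells 31 and 22 UMIs (0.716 and 0.868 CPM). The groups did not overlap, but NKD1 missed the threshold (log2 fold change -1.40, SE 0.46, adjusted p = 0.0647 in edgeR). In primary pancreas 2, 15 of the 22 UMIs came from 17 cells of cluster 5 (40.6 CPM, 95% Poisson interval 22.7 to 66.9), a cluster led by TCN1, LGR5, AADAC and ONECUT2. In the 467 cells of cluster 5 in primary pancreas 1, NKD1 stood at 1.82 CPM (0.667 to 3.96), and 21 of the 31 UMIs of that library lay in the large cluster 0 (1277 cells, 0.648 CPM). Leaving cluster 5 out, an alternative added after its genes were seen, gave a log2 fold change of -0.70 (adjusted p = 0.408 in edgeR). At the finer resolution of 1.0, a cluster of 91 cells led by TCN1, TM4SF20 and APOE was named Schwann-like and so lay outside the ductal-like class. Its leading genes join LGR5 with LUZP2 and PTPRT, which also lead Schwann-like cluster 17. The 91 cells thus need not all have been ductal-like at resolution 0.5. Schwann-like clusters held 191 and 154 cells there and 154, 147 and 91 cells at 1.0. At resolution 1.0 the log2 fold change was -0.25 (adjusted p = 0.727 in edgeR).

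LGR5, an R-spondin receptor known from adult stem cells, picked out NKD1 in both primary libraries. Of the ductal-like cells, 30 in the first primary library and 38 in the second had an LGR5 UMI. NKD1 stood at 16.6 CPM (95% Poisson interval 8.60 to 29.1) and 20.6 CPM (12.4 to 32.1) in these cells, against 0.446 CPM (0.269 to 0.697) and 0.123 CPM (0.0253 to 0.359) in the other ductal-like cells. NKD1 UMIs lay in few ductal-like cells, 21 of 2169 in primary pancreas 1 and 7 of 1188 in primary pancreas 2. The cells with an LGR5 UMI were also deeper, with medians of 21896 and 23665 UMIs against 17824 and 20511. TCF7 did not follow this split, at 23.6 against 31.4 CPM and 14.1 against 14.2 CPM, with intervals that met. AXIN2 was at 13.9 against 17.9 CPM in primary pancreas 1 and at 20.6 against 11.3 CPM in primary pancreas 2, where the intervals (12.4 to 32.1 and 9.96 to 12.7) met as well. A further 145 shallow cells of primary pancreas 1 (cluster 20, median 1196 UMIs) also held LGR5 (164 CPM) and 4 ductal markers but stayed unnamed for their depth, and NKD1 had 5 UMIs there (7.14 CPM). Only 2 of the 269 unnamed cells of primary pancreas 1 had an NKD1 UMI. Intervals here and elsewhere cover counting error only, and these differences between cells of a library were not tested.

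SP5 was nearly absent from these libraries. It had 9 UMIs in 6 barcodes in all, and 6 of them lay in 3 ductal-like cells of primary pancreas 2, all in cluster 5. Each of those 3 cells held 8 to 28 LGR5 UMIs, and 1 further SP5 UMI lay in a cell of the unnamed cluster 20 with 29 LGR5 UMIs. No SP5 UMI was found in kept PPDO cells among 563363046 UMIs, and 1 was found in a PPDO 1 barcode that was not kept. Pooled over the ductal-like cells SP5 stood at 0.0874 CPM, a value that rests on primary pancreas 2. SP5 did not pass the filter on low counts, so it has no test.

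Of the 6 members, 5 passed the filter on low counts and 3 passed the test, all 3 higher in PPDO. This stands beside a background of 43.7% of 23545 genes called (22.9% higher and 20.8% lower), so a called gene was common in this comparison. The fit scales libraries by TMM, and with library totals alone the median log2 fold change of all genes moved from 0.0071 to -0.45 and the calls from 5381 higher and 4908 lower to 3253 higher and 6952 lower. On that scale LEF1 (3.998) and NOTUM (2.76) still passed, AXIN2 did not (0.78, adjusted p = 0.0701 in edgeR), NKD1 did (-1.84, adjusted p = 0.0326 in edgeR), and TCF7 stood at -0.0023. Relative to the median of all genes, TCF7 was above and NKD1 below it under both scalings.

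**Figure D1:**
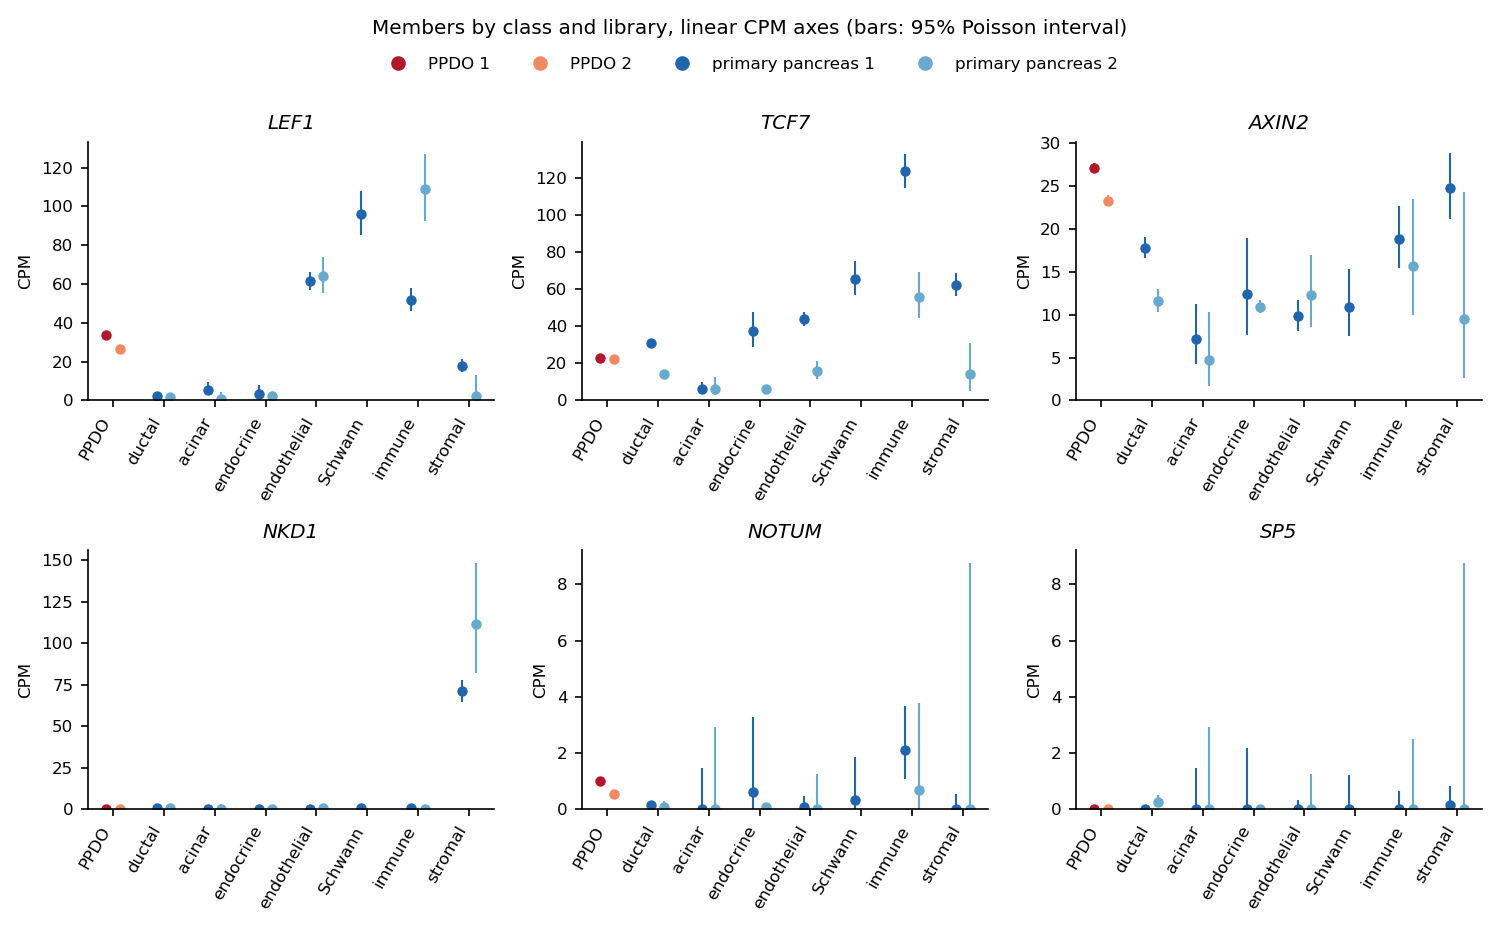
CPM of each member in PPDO and in the primary classes, by library, with 95% Poisson intervals and classes of at least 20 cells in a library. LEF1 stands at 2.15 and 1.58 CPM in ductal-like cells and at 61.4 and 64.1 CPM in endothelial-like cells, and NKD1 reaches 70.9 and 112 CPM in stromal-like cells, where the other points drawn lie under 1 CPM.

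Outside the duct the members were spread over different cell types of the primary pancreas. These classes are described without a test, since they come from clustering the same cells.

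LEF1 was highest in immune-like cells (51.6 CPM in primary pancreas 1 and 109 CPM in primary pancreas 2), Schwann-like cells (96.3 CPM, primary pancreas 1) and endothelial-like cells (61.4 and 64.1 CPM). The immune-like values lie on both sides of the other classes, so these 3 cannot be ordered. PPDO followed below all of them. Stromal-like (18.0 and 2.38 CPM, the second from 1 UMI), acinar-like (5.56 and 0.792 CPM), endocrine-like (3.55 and 2.34 CPM) and ductal-like cells lay below PPDO and cannot be ordered across libraries. The endocrine-like values were above the ductal-like ones, but their counting intervals met (2.02 to 2.69 CPM in endocrine-like cells of primary pancreas 2 and 1.73 to 2.63 CPM in ductal-like cells of primary pancreas 1), and on bodies only the means were 1.22 and 1.36 CPM. INS took up 52.8% of the endocrine-like UMIs of primary pancreas 2, and with INS left out of the totals LEF1 stood there at 4.69 CPM in cluster 2, 5.56 CPM in cluster 3 and 3.49 CPM in cluster 6, so this comparison depends on the total and on the features counted. The immune-like signal came from cluster 10, which had all 7 T and NK lymphocyte markers, with 165 and 306 CPM. In myeloid-like cluster 12 no LEF1 UMI was found in either library. Myeloid-like cluster 15 had the few other immune-like LEF1 UMIs, all in primary pancreas 1. Endothelial-like clusters ranged from 32.4 CPM in cluster 16 to 211 CPM in the 21 cells of cluster 18 in primary pancreas 2. Of the Schwann-like clusters, cluster 17 (CDH19, CHL1) had 139 CPM and cluster 19 (PMP22, CLDN19) had 34.3 CPM. A small acinar-like cluster of primary pancreas 1, cluster 22, had 12 LEF1 UMIs in 72 cells (13.6 CPM), but in the whole acinar-like class of that library only 3 of 257 cells had a LEF1 UMI, so this value rests on at most 3 cells.

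TCF7 was highest in immune-like cells too, at 124 and 55.7 CPM, but there it was not limited to lymphocytes. It reached 190 and 107 CPM in the T and NK-like cluster and 158 and 35.8 CPM in myeloid-like cluster 12. Myeloid-like cluster 15 lay below cluster 12 in both libraries, with no TCF7 UMI in primary pancreas 2. Schwann-like cells had 65.7 CPM, stromal-like cells 62.5 and 14.3 CPM, endothelial-like cells 43.9 and 16.0 CPM and endocrine-like cells 37.3 and 6.42 CPM. Primary pancreas 1 exceeded primary pancreas 2 by 2.20 to 5.81 times in 5 of the 6 classes found in both, ductal-like cells included, and acinar-like cells were the exception (5.96 and 6.34 CPM). For LEF1 the same ratio ran from 0.474 in immune-like and 0.957 in endothelial-like cells to 7.57 in stromal-like cells, on both sides of 1. Among ductal-like clusters of primary pancreas 1, TCF7 was at 38.2 CPM in cluster 0, led by OSGIN1, AADAC and RND1, and at 8.69 CPM in cluster 8, whose leading genes include SOX9 and CFTR. The primary libraries were made on different days from differently selected cells, and these cannot be told apart from the animal.

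AXIN2 varied less over the classes than LEF1 or NKD1. Primary classes lay between 4.75 CPM (acinar-like, primary pancreas 2) and 24.7 CPM (stromal-like, primary pancreas 1), and only the latter reached the PPDO range. Clusters differed more, with 39.6 and 26.8 CPM in T and NK-like cells, 33.0 CPM in fibroblast-like cluster 11 and 5.21 and 5.50 CPM in myeloid-like cluster 12. The other myeloid-like cluster, 15, lay above cluster 12 in both libraries, on few UMIs in primary pancreas 2. Endocrine-like cluster 6, led by SST, GCG and PPY, the hormones of delta, alpha and PP cells, had 21.3 and 36.2 CPM. The INS-rich clusters 2 and 3 had 7.60 and 11.7 CPM in primary pancreas 2, but INS took up 61.7% and 48.1% of their UMIs. With INS left out of the totals these became 19.9 and 22.6 CPM, against 38.0 CPM in cluster 6, so AXIN2 was higher in cluster 6 of primary pancreas 2 on both scales. In primary pancreas 1 cluster 6 had 9 AXIN2 UMIs and cluster 3 had 11, and with INS left out they stood at 21.7 and 21.1 CPM.

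NKD1 was mainly found in stromal-like cells. They had 70.9 and 112 CPM, and no other named class had a measured value of 1 CPM or more. Where no NKD1 UMI was found, the counts allow up to 1.19 and 2.38 CPM in acinar-like cells, 1.77 CPM in endocrine-like cells of primary pancreas 1 and 2.04 CPM in immune-like cells of primary pancreas 2. The smooth muscle and pericyte-like cluster 7 had 85.8 and 110 CPM and fibroblast-like cluster 11 had 53.3 CPM in primary pancreas 1. At 3000 UMIs per cell, 17.2% and 14.9% of stromal-like cells had an NKD1 UMI, against 0.146% and 0.0842% of ductal-like cells, and primary pancreas 2 had 47 stromal-like cells. In PPDO, the 4 fibroblast markers summed to 0.253 and 0.511 CPM, against 4.13 and 0.946 CPM in ductal-like cells. The 5 smooth muscle and pericyte markers summed to 83.1 and 87.2 CPM against 31.96 and 25.9 CPM, and NOTCH3 made up most of this (74.8 and 79.3 CPM in PPDO). None of these markers was at 0 in PPDO, and their part in the NKD1 values was not tested.

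NOTUM was found at 12 UMIs in immune-like cells of primary pancreas 1, all in the T and NK-like cluster and all on the extension feature, and at 1 UMI in primary pancreas 2. This made 2.09 CPM (95% Poisson interval 1.08 to 3.65) and 0.680 CPM (0.0172 to 3.79). Both intervals met that of PPDO 1 (0.900 to 1.13 CPM), and that of PPDO 2 (0.456 to 0.638 CPM) met only the second. The classes thus cannot be ordered across libraries. No NOTUM UMI was found in stromal-like cells, which allows up to 0.450 CPM in primary pancreas 1. SP5 was found at 1 UMI in stromal-like cells and at none in the other named classes outside the duct.

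**Figure D2:**
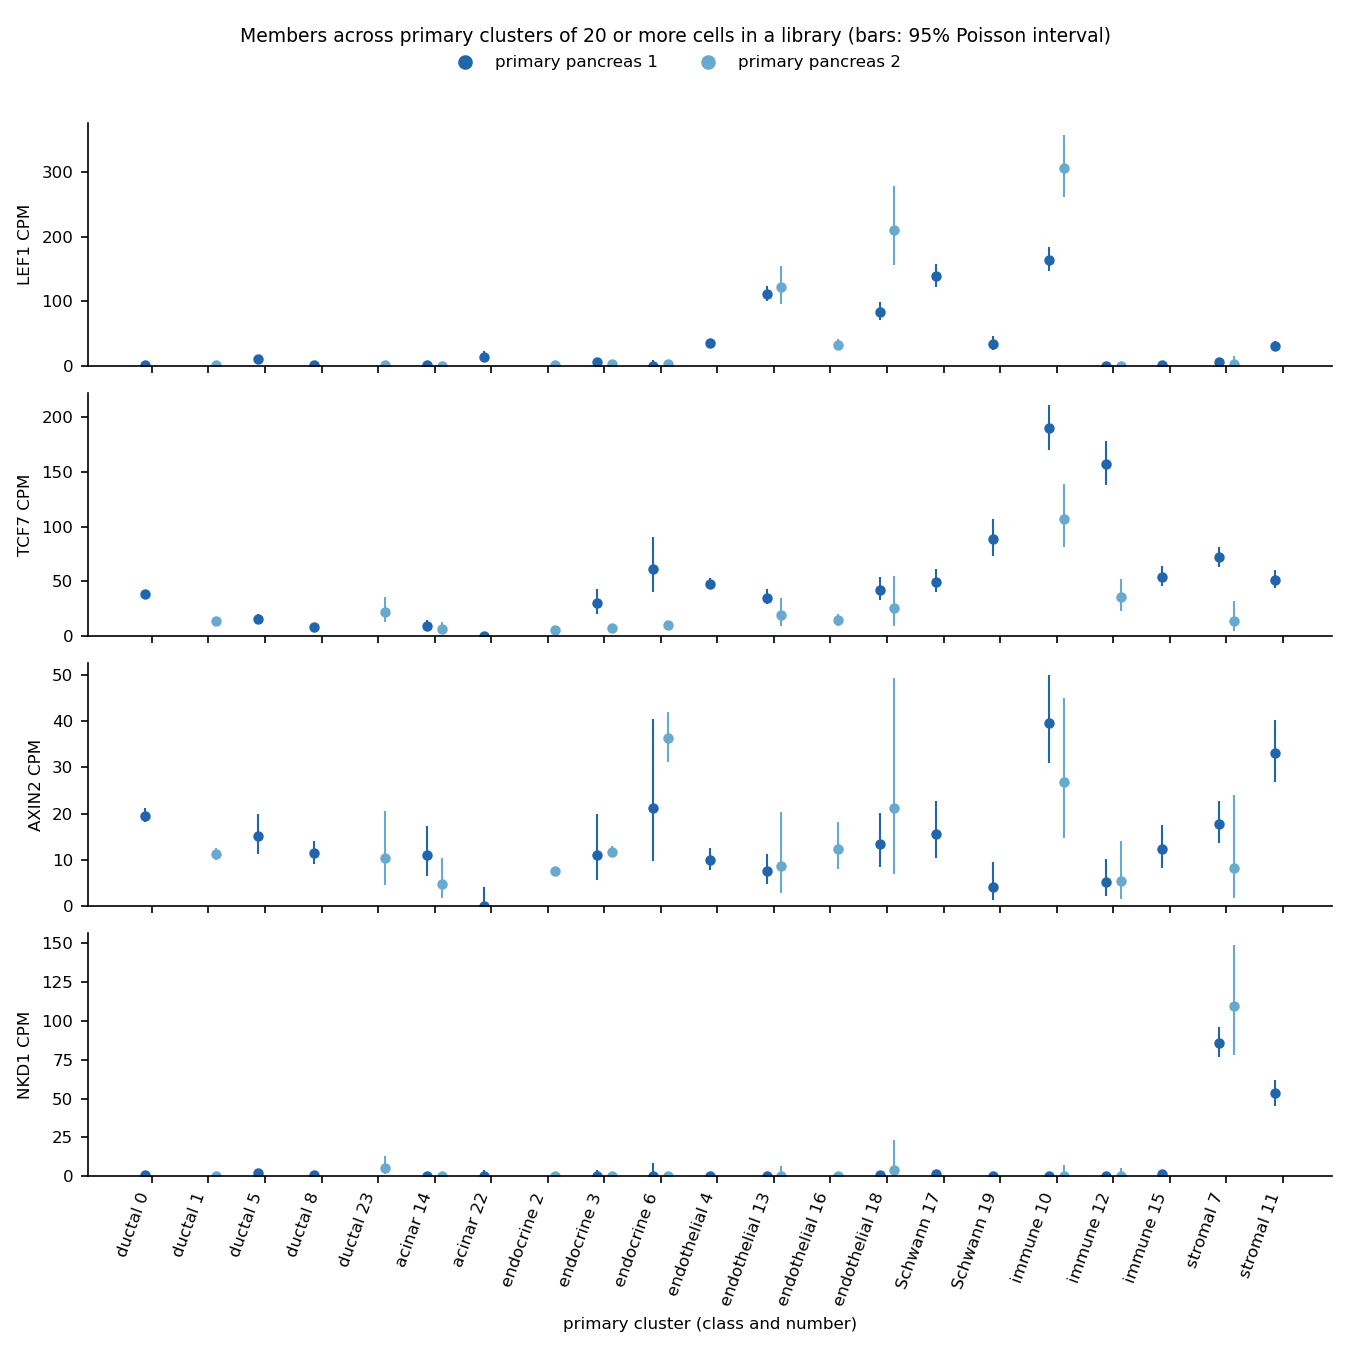
CPM of LEF1, TCF7, AXIN2 and NKD1 in each named primary cluster of at least 20 cells in a library, with 95% Poisson intervals. LEF1 is highest in T and NK-like cluster 10 (165 and 306 CPM) and NKD1 in stromal-like clusters 7 and 11, and TCF7 is lower in primary pancreas 2 in clusters such as 10, 12 and 7.

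Within PPDO the members split into 3 genes that varied with cell state and 1 that mostly did not. PPDO cells were clustered without the WNT genes into 10 clusters. LEF1 was highest in cluster 2, led by CXCL14, HMCN1 and CACHD1 and rich in LGR6, another R-spondin receptor, at 76.4 CPM in PPDO 1 and 66.5 CPM in PPDO 2. It was next in cluster 7 (62.0 and 37.7 CPM), led by DNA replication genes such as DTL and MCM3, and in the proliferating-like cluster 5 (53.0 and 45.1 CPM). It was lowest among clusters of at least 100 cells in each library in glycolysis-like clusters 3 (2.98 and 3.02 CPM) and 6 (3.56 and 2.82 CPM). Cluster 4, which got no name and was led by PLXDC2, PLA2G4E and DSG1, was nearly as low (4.56 and 4.49 CPM). Glycolysis-like cluster 0 had 19.7 and 17.1 CPM, basal-like cluster 1 had 20.2 and 12.3 CPM, and ductal-like cluster 8 had 12.3 and 9.48 CPM. Cluster 2 held 21.5% and 18.9% of the cells and 53.9% and 48.0% of the LEF1 UMIs.

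AXIN2 followed nearly the same order. It had 52.7 and 41.4 CPM in cluster 2, 39.5 and 33.4 CPM in cluster 7, and 2.04 and 5.13 CPM in cluster 3. NOTUM had 2.62 and 1.48 CPM in cluster 2, 2.79 and 0.971 CPM in cluster 7 and 1.95 and 0.835 CPM in cluster 5, so its highest cluster was 7 in PPDO 1 and 2 in PPDO 2. It was at most 0.267 CPM in clusters 0, 1 and 4. Clusters 3, 6 and 8 had 0 to 2 NOTUM UMIs in each library, and cluster 9 had none, which allows up to 6.63 and 1.86 CPM there. Cluster 2 held 61.5% and 52.1% of the NOTUM UMIs. Over the 9 clusters of at least 100 cells in each library, the correlation of LEF1 with AXIN2 was r = 0.92 in PPDO 1 and 0.85 in PPDO 2, with NOTUM 0.90 and 0.93, with LGR6 0.98 and 0.94, and with LGR5 0.97 and 0.95. These are descriptions on the log2(CPM + 1) scale over clusters that share a library, and their median depths differ.

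TCF7 stayed nearly flat. It ranged from 21.2 to 27.3 CPM over these 9 clusters in PPDO 1 and from 21.4 to 25.04 CPM in PPDO 2, a spread of 1.29 and 1.17 times, where LEF1 spread 25.6 and 23.6 times. Its correlation with LEF1 over them was 0.11 and -0.44. The exception was the small and shallow cluster 9 (36 and 93 cells), led by S100A8 and KRTDAP, where TCF7 had 2.21 and 5.58 CPM and LEF1 2.21 CPM in PPDO 1 and no UMI in PPDO 2.

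The same split was seen in single cells thinned to 10000 UMIs. AXIN2 was detected in 31.7% of PPDO 1 cells with a LEF1 UMI (95% exact interval 29.4 to 34.0%) and 14.9% of those without (14.0 to 15.7%), and in PPDO 2 in 29.8% and 15.2%. TCF7 was detected in 20.5% (18.6 to 22.5%) and 19.5% (18.5 to 20.4%) in PPDO 1 and in 22.7% (20.3 to 25.2%) and 18.9% (17.9 to 19.9%) in PPDO 2, where the intervals did not meet. NOTUM was detected in 1.83% and 0.580% of PPDO 1 cells with and without LEF1 and in 1.39% and 0.316% in PPDO 2.

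NKD1 and SP5 did not mark cluster 2 in both libraries. NKD1 was at 0.547 and 0.120 CPM there and highest in proliferating-like cluster 5, at 0.836 and 0.510 CPM. SP5 had no UMI in any PPDO cluster.

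The ductal-like PPDO cluster 8 (259 and 164 cells) gave another comparison, which was chosen after the clusters were seen. LEF1 was still higher there than in the primary ductal-like cells, by 2.82 on the log2 scale (adjusted p = 0.00569 in edgeR). AXIN2 stood on the other side, at 8.91 and 4.17 CPM against 17.8 and 11.6 CPM (log2 fold change -0.86, adjusted p = 0.22 in edgeR), and did not pass.

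**Figure D3:**
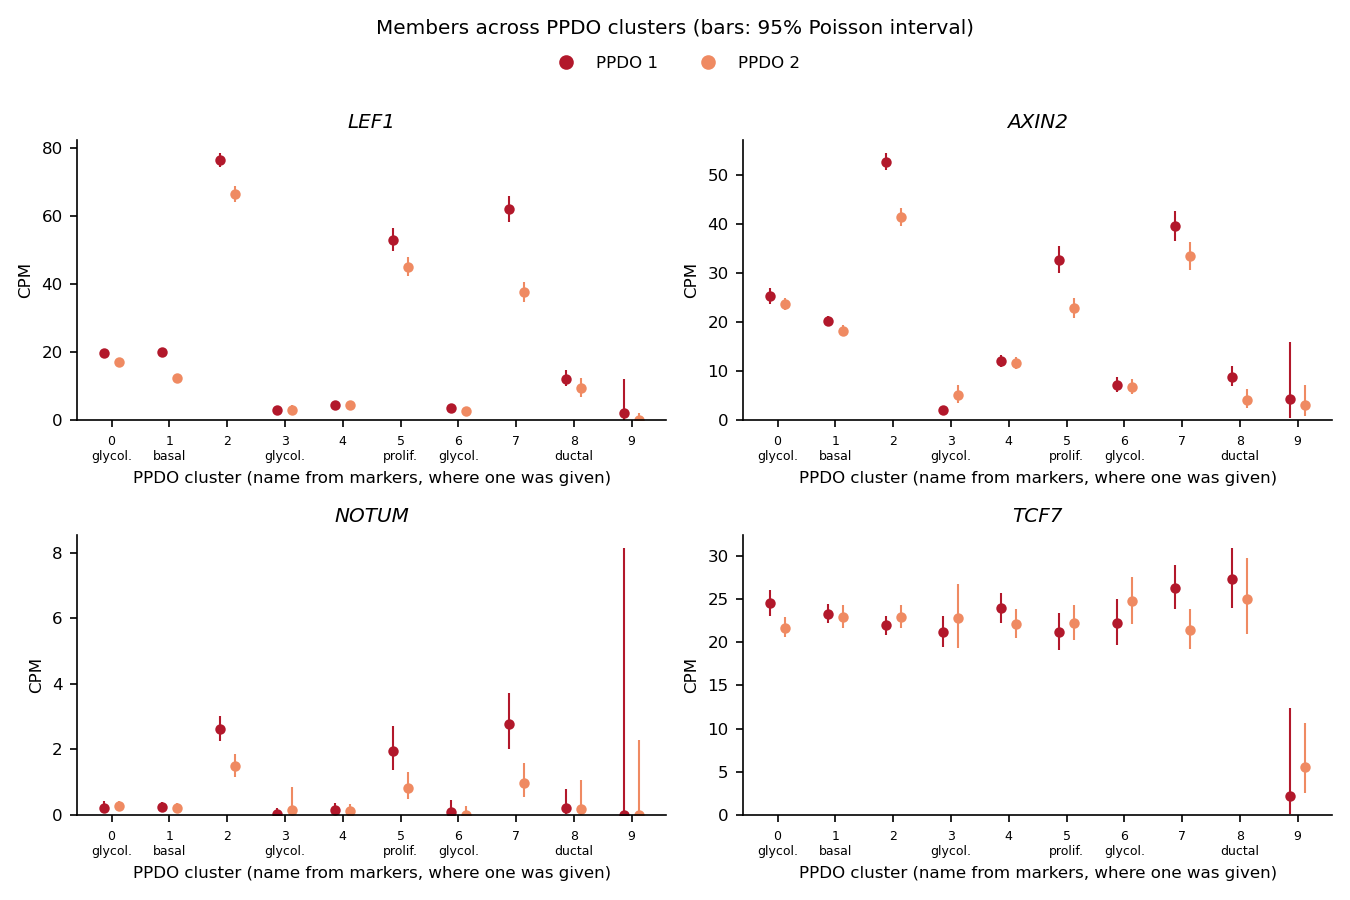
CPM of LEF1, AXIN2, NOTUM and TCF7 in the 10 PPDO clusters of each library, with 95% Poisson intervals. LEF1 and NOTUM are high in clusters 2, 5 and 7 and AXIN2 in clusters 2 and 7. All 3 are low in clusters 3 and 6, and LEF1 is also low in cluster 4. TCF7 lies between 21.2 and 27.3 CPM in all clusters but cluster 9.

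The wider pathway did not move one way. A list of 68 WNT pathway genes in 5 roles, members included, had 59 genes with a test, of which 33 were called (55.9%, against 43.7% of all genes). Of these, 13 were higher and 20 lower in PPDO, and the median log2 fold change was -0.19, against 0.0071 for all genes. Without the 6 members, 10 were higher and 20 lower. Without PPDO replicate 1 or without PPDO replicate 2 the number called was 19, while the calls over all genes were 4858 of 21476 and 4416 of 21546.

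Among TCF/LEF factors and their co-factors 5 of 9 were called, LEF1 higher and 4 lower. TCF7L2, a paralogue of LEF1 and TCF7, had 259 and 224 CPM in PPDO and 527 and 520 CPM in ductal-like cells, and its log2 fold change was -0.66 (SE 0.16, adjusted p = 0.0271 in edgeR). The paralogue TCF7L1 was not matched by name. PYGO1, a co-activator bound through BCL9, had 0.262 and 0.415 against 10.97 and 12.1 CPM (-4.62 on the log2 scale), and BCL9 and TLE1, a co-repressor, were lower too. In the destruction complex and its regulators 3 of 12 were called (25%), all lower, a share below the 43.7% of all genes called and near the 20.8% called lower. They were CTNNB1, which encodes β-catenin, at 124 and 129 against 315 and 299 CPM (-0.83 on the log2 scale), the Dishevelled gene DVL3 (-0.79) and APC, a scaffold of the complex.

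Of the feedback inhibitors 9 of 13 were called, 6 higher and 3 lower, and AXIN2 and NOTUM are among the 6. Beside AXIN2 and NOTUM, the secreted WNT binder SFRP1 had 3.28 and 5.83 against 0.393 and 0.0789 CPM (4.57 on the log2 scale, SE 0.81, adjusted p = 0.0120 in edgeR). The membrane inhibitor APCDD1 had 16.1 and 18.2 against 1.80 and 1.62 CPM (3.77, SE 0.25, adjusted p = 0.00109 in edgeR). RNF43, a ligase that removes Frizzled receptors, and DKK3 were also higher, and WIF1 and SFRP5 were lower. DKK2 was called lower too but rests on few UMIs, at 0.0199 and 0.0152 against 0.0924 and 0.158 CPM.

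Of the receptors 8 of 13 were called, 2 higher and 6 lower. The R-spondin receptors LGR4 and LGR6 were higher, LGR6 at 71.1 and 85.0 against 0.162 and 0.434 CPM (8.61 on the log2 scale). FZD2, FZD3, FZD5, FZD7, FZD8 and the co-receptor LRP6 were lower, FZD5 at 11.6 and 8.98 against 550 and 736 CPM (-5.49 on the log2 scale). Among other target genes 8 of 12 were called, 4 in each direction. ASCL2, a stem cell transcription factor of the intestine, had 7.50 and 3.38 against 0.0231 and 0.118 CPM (6.90 on the log2 scale), and PROX1, a transcription factor of the developing pancreas, had 0.342 and 0.141 against 296 and 331 CPM (-9.88).

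**Figure D4:**
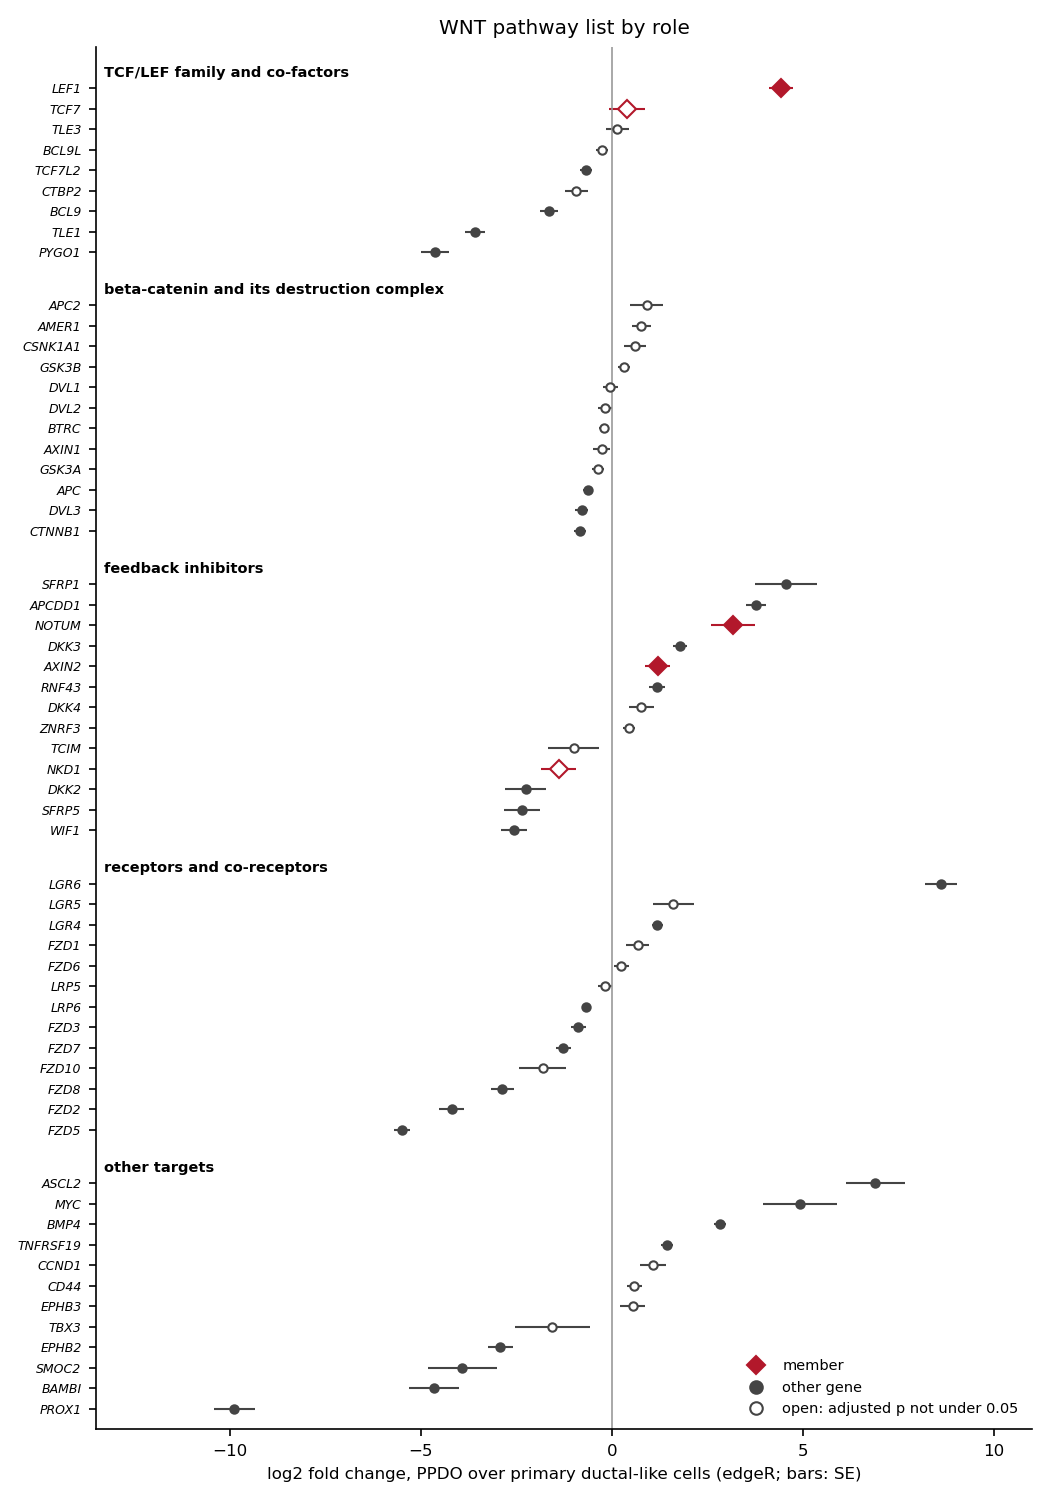
Log2 fold change of the 59 WNT pathway genes with a test, PPDO over primary ductal-like cells, by role, with SE from edgeR. Members are red diamonds, and LEF1 (4.43), NOTUM (3.17) and AXIN2 (1.20) are filled for an adjusted p under 0.05, while TCF7 and NKD1 are open.

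The genes most like each member over classes and libraries (Pearson r of log2(CPM + 1) over 15 sums of at least 20 cells) were different for each. They were DOCK4 (0.94), CEMIP2 (0.92) and TAF4B (0.92) for LEF1, and SLC10A1 (0.93) and NXF1 (0.93) for TCF7. For AXIN2 they were IMPA2 (0.88), EIF2B2 (0.88) and KLHL7 (0.87), all 3 highest in PPDO. For NKD1 they were CHRDL1, CHRD and RERGL (1.00, 1.00 and 0.99), all 3 highest in stromal-like cells. NKD1 was under 1 CPM in all other sums, so these values rest mainly on the stromal-like sums, where CHRD reached at most 16.6 CPM. The sums share libraries, and these genes are among the most correlated of 12879 searched for each member, so high values are expected from the search. NOTUM and SP5 were too low to rank.

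The features behind a gene differed between cell types. The annotation gives 5 of the 6 members an extension feature beside the annotated body, and SP5 none. LEF1 UMIs fell on the extension in 2.36% and 2.67% of cases in PPDO and in 0.955% and 0.532% in endothelial-like cells. The share was 23.7% and 40.0% in ductal-like cells and 74.1% of 197 UMIs in endocrine-like cells of primary pancreas 2 (95% exact interval 67.4 to 80.1%). Counted on bodies only, LEF1 was lower still in ductal-like cells (mean 1.36 CPM), and the log2 fold change rose to 4.88 (adjusted p = 0.00170 in edgeR). TCF7 had 33.2% and 32.3% on the extension in PPDO and 42.2% and 52.5% in ductal-like cells. AXIN2 had at most 2.69% in these groups. What the extension reads of LEF1 in endocrine-like cells and those of TCF7 derive from was not tested.

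**Figure D5:**
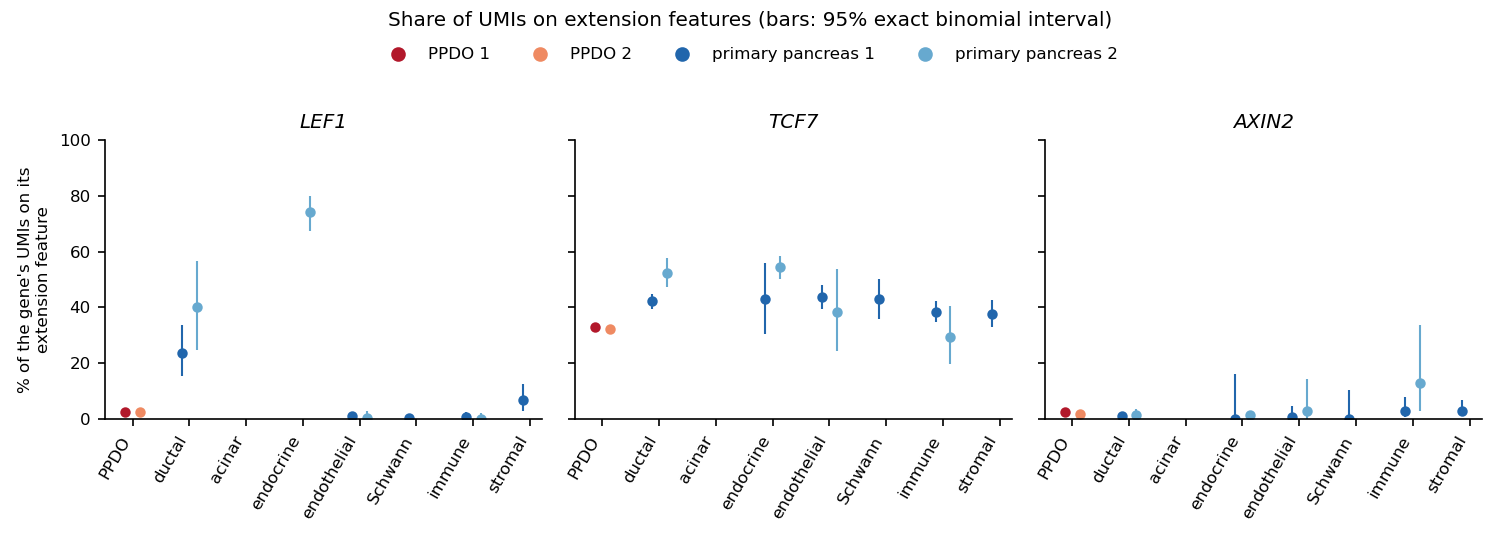
Share of the UMIs of LEF1, TCF7 and AXIN2 that fell on the extension feature, by class and library, with 95% exact binomial intervals, for sums of at least 20 UMIs of the gene. LEF1 stands at 74.1% in endocrine-like cells of primary pancreas 2 and at 2.36% and 2.67% in PPDO, and TCF7 has a share on the extension in each class drawn.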

How the data were processed

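The 4 single-cell libraries were sorted live cells prepared with 10x Chromium 3' v3.1 chemistry. The authors counted UMIs with Cell Ranger 7.1.0 against an in-house pig annotation, and the deposited values are raw counts per feature and barcode. The build Sscrofa11.1 is named in the submitters' processing notes. Free RNA was not removed here, and human and bulk data were not analysed here.

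Features of a gene (56060 in all, 25770 extensions) were summed to 30282 gene identifiers. Cells were kept after the study's methods, in PPDO with at most 3% mitochondrial UMIs and 1000 to 9000 features. The study allowed fewer features in 1 of the PPDO samples, but the labels do not say which library that is, so the minimum of 1000 was used for both, and its smaller minimum for both was an alternative. The limits were in primary pancreas under 8% and under 9000 features, with over 400 features in primary pancreas 1 and over 800 features and 3000 UMIs in primary pancreas 2. Scrublet scores over 0.25 and 0.15 removed 92 and 162 cells. Clustering used 2000 variable genes without the WNT list, 20 components, 15 neighbours and Leiden (leidenalg 0.10.2) at resolution 0.5, with Scanpy 1.11.5 and edge weights rounded to 3 decimals, so that the partition does not depend on the processor. The names rest on marker lists.

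UMIs were summed per library, for PPDO and for primary ductal-like cells (262372786 to 300990260 and 25359901 to 43304762 UMIs), and tested in edgeR 4.0.16 (TMM, filterByExpr, glmQLFit and glmQLFTest, group only, FDR under 0.05). SE is the absolute log2 fold change over the square root of F. DESeq2 1.42.0 was an alternative. The fits were run on simulated data with a small set of changed genes and the same spread for every gene. That setting is simpler than these data, so it says little about the calls made here. Replicate numbers do not pair these samples: the deviations of same-numbered libraries correlated at -0.01. Libraries of a group differ in line or animal, and the primary ones also in day and in how cells were enriched, so p-values measure the spread between these samples.

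Shares of cells were counted after thinning to 3000 UMIs and compared with a two-sided exact permutation test. Intervals are exact (95%), and a count of 0 is read as a floor of 3 counts. The genes named are the 6 members, per role of the WNT list the 2 called genes with the largest log2 fold change and every LEF/TCF paralogue, LGR5 and LGR6 where cells were split, and the 3 genes most correlated with each member above 5 CPM. Further called genes of a role were named after their values were seen, and 1 gene that the rule selects for TCF7 is not reported here. The members and lists were chosen with earlier results of these data known.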

Additional observations from a re-analysis of the deposited data

How the results depend on the processing

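LEF1 and NOTUM kept their direction in every fit that gave them a value, and LEF1 its call, whereas NOTUM lost its call without PPDO replicate 1 and was filtered out with only the ductal-like PPDO cluster. With 1 library left out the log2 fold change ranged from 4.11 to 4.78 for LEF1, 0.81 to 1.66 for AXIN2, 2.70 to 3.81 for NOTUM, -1.95 to -1.01 for NKD1 and -0.15 to 1.22 for TCF7, the number of genes called from 4416 to 10723 and of WNT list genes from 19 to 39. NKD1 passed with doublets kept (-1.80). With library totals only, chosen after seeing the data, NKD1 passed (-1.84), AXIN2 did not (0.78) and TCF7 turned to -0.0023. With only the ductal-like PPDO cluster, also chosen after seeing the data, AXIN2 turned to -0.86. A second Leiden seed, also added after seeing the data, changed no call of a member and moved none of 48 class CPM values beyond their spread, against 7 with bodies only, 4 at resolution 1.0 and 4 with doublets kept. The fit with the replicate block called 8151 genes and changed no call of a member (LEF1 4.46, AXIN2 1.26, NOTUM 3.24, NKD1 -1.45, TCF7 0.56). The cause of these changes was not tested.

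Shares of cells grow with depth by construction. The difference between PPDO and ductal-like cells (percentage points) was 4.87 at 2000 UMIs, 9.72 at 5000 UMIs and 29.3 unthinned for LEF1, and 1.62, 4.04 and 18.2 for AXIN2. Unthinned it was 20.3 for TCF7, -0.21 for NKD1 and 2.15 for NOTUM. NOTUM and SP5 had the fewest UMIs of the members in ductal-like cells, 8 and 6 in all, so their shares there rest on few molecules.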
